A study of Mus musculus with 6 samples.

Results

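Semaphorins, plexins and neuropilins are the ligands, receptors and co-receptors of one guidance system, and their transcripts were examined in the dorsal midbrain of *Ezh2* cko and control mouse embryos at embryonic day 10.5. The genes were taken by symbol, and the family itself was picked for description with earlier results of these data known. A probe set was included where the array's annotation gives it a single symbol that is *Sema* with a number and a letter, *Plxn* with a letter and, where there is one, a number, *Nrp1* or *Nrp2*. This gave 78 of the 45037 probe sets tested and 31 of the 18193 genes, namely 20 semaphorins, 9 plexins and 2 neuropilins. Each gene is represented by its probe set with the highest mean over the 6 arrays.

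The *Ezh2* cko embryos (n = 3) carried *Wnt1-Cre* and *Ezh2* [SET]lox/lox, so that Cre removed the part of the gene encoding the SET domain, the methyltransferase domain of the Polycomb protein Ezh2. By the methods, the controls (n = 3) were littermates that either lacked Cre on the same floxed background or carried *Wnt1-Cre* with 1 wild-type allele, whereas the labels call them WT. The labels give strain C57BL/6 for both groups, the methods give 2 litters per group, and no label ties an embryo to a litter. *Wnt1-Cre* recombines the caudal midbrain more completely than the rostral dorsal midbrain and is also active in neural crest, and the RNA came from whole dissected tissue. In such bulk RNA, fewer cells of a type and less RNA per cell cannot be told apart. The single *Ezh2* probe set had log2 signals of 11.79, 11.74 and 11.72 in the *Ezh2* cko, against 11.69, 11.76 and 11.66 in controls (adjusted p = 0.918, limma). Its position relative to the deleted part is not given in the sources used here, so it does not check the deletion. The array medians lay between 5.68 and 5.72 on the log2 scale, and the 9 midbrain markers had mean signals of 6.45 to 12.43 over the arrays. A log2 signal of this kind depends on the probes and has no level that marks absence, so each gene is compared only with itself across arrays.

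Semaphorins carry a sema domain through which they bind the sema domain of plexins. The class 3 proteins of vertebrates are secreted and, apart from Sema3e, generally need a neuropilin as the binding co-receptor, while classes 4, 5 and 6 span the membrane and Sema7a is held by a lipid anchor. Plexins signal through a GTPase-activating domain inside the cell that acts on small GTPases of the Ras and Rap families, and the system is known for repelling or attracting growth cones, guiding migrating neural crest and shaping blood vessels.

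The windows around the annotated starts of *Nrp2*, *Met* and *Plxnb1* are printed because they belong to the family gene with the lowest adjusted p, to *Met*, the partner gene that rose, and to the plexin with which the Met receptor associates. Polycomb repressive complex 2 is known to occupy CpG-rich promoters in mammals, and CG, the only motif searched, is therefore in capitals (it reads the same on both strands). Each window runs from 250 bases before to 50 bases after the start, 5′ to 3′, from RefSeq on GRCm38.p6. They are chr1:62703067-62703366 (plus strand, *Nrp2*, 37 CG), chr6:17463707-17464006 (plus strand, *Met*, 34 CG) and chr9:109095186-109095485 (plus strand, *Plxnb1*, 36 CG).
Nrp2: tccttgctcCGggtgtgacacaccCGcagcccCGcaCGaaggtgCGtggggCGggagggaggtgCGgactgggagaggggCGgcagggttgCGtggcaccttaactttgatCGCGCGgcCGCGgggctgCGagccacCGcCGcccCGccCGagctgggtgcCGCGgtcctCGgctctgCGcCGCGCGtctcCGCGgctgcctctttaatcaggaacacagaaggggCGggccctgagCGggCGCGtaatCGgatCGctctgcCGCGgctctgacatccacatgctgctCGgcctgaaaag
Met: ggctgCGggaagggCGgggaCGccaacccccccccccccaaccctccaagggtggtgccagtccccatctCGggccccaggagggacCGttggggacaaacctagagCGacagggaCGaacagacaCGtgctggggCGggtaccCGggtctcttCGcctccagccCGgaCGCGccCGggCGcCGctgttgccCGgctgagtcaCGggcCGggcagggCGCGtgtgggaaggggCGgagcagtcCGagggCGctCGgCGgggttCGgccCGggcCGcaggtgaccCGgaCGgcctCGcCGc
Plxnb1: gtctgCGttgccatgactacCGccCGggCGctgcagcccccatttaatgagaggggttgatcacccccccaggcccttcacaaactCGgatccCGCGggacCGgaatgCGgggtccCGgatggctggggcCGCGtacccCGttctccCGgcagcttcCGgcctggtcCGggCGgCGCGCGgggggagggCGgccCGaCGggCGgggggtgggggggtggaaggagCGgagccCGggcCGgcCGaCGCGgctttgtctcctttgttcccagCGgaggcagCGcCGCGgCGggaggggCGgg
The windows of *Nrp2*, *Plxnb1* and *Met* thus held similar counts of CG, and of these genes *Met* alone passed the test. They were picked from these results, so their counts cannot relate CG to the outcome of the test. Windows were found for 26 of the 31 genes, taking the one richest in CG where a gene has several starts. The median was 23 CG per 300 bases, beside 15 for protein-coding genes, and 16 of the 26 windows, or 61.5%, held at least 15, beside 8748 of 17492 protein-coding genes and 37.1% of all genes in the table. Of the 6 family genes whose groups did not overlap, *Nrp2* and *Sema7a* (23 CG) held at least 15, and *Sema3a* (2), *Sema3d* (8), *Sema4f* (7) and *Sema6d* (14) held fewer. The arrays measured no histone mark, so nothing about binding follows from these counts.

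No member of the family passed the test between *Ezh2* cko and control midbrain. At an adjusted p under 0.05 (limma, Benjamini-Hochberg over all probe sets tested), 0 of the 31 genes were higher and 0 lower, where 0.302% of all genes passed. None reached the threshold of the methods either, which sets a smallest fold change beside an unadjusted p-value and which 0.407% of all genes reached. At an unadjusted p under 0.05, 4 members were higher and 0 lower in limma, where 8.87% of all genes differed (6.12% higher, 2.75% lower). In the unpaired test of the methods, 2 members were under 0.05 before adjustment and 0 after, beside 8.16% of all genes before it. The lowest adjusted p-value of any member was 0.356, that of *Nrp2*.

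The differences were small throughout. They ranged from -0.28 for *Sema3b* to 0.46 for *Sema4f* on the log2 scale, with a median of 0.049, beside a median of -0.019 over all genes. The family median was 0.018 without *Ezh2* cko replicate 1 and 0.078 without *Ezh2* cko replicate 2, and it was 0.022 after a repeated quantile normalization and 0.029 with the mean of all probe sets of a gene. The difference was positive for 19 members, or 61.3%, beside 43% of all genes. For 25 of the 31 members the 95% interval of the difference lay within 0.5 log2 units of 0 either way, that is within 1.41-fold. The share was larger over all genes, at 90.3%. The remaining 6 members, *Nrp2*, *Sema3b*, *Sema4c*, *Sema4f*, *Sema6d* and *Sema7a*, had intervals that reached beyond that limit. These intervals come from the limma fit and are not adjusted for the number of genes.

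**Figure D1:**
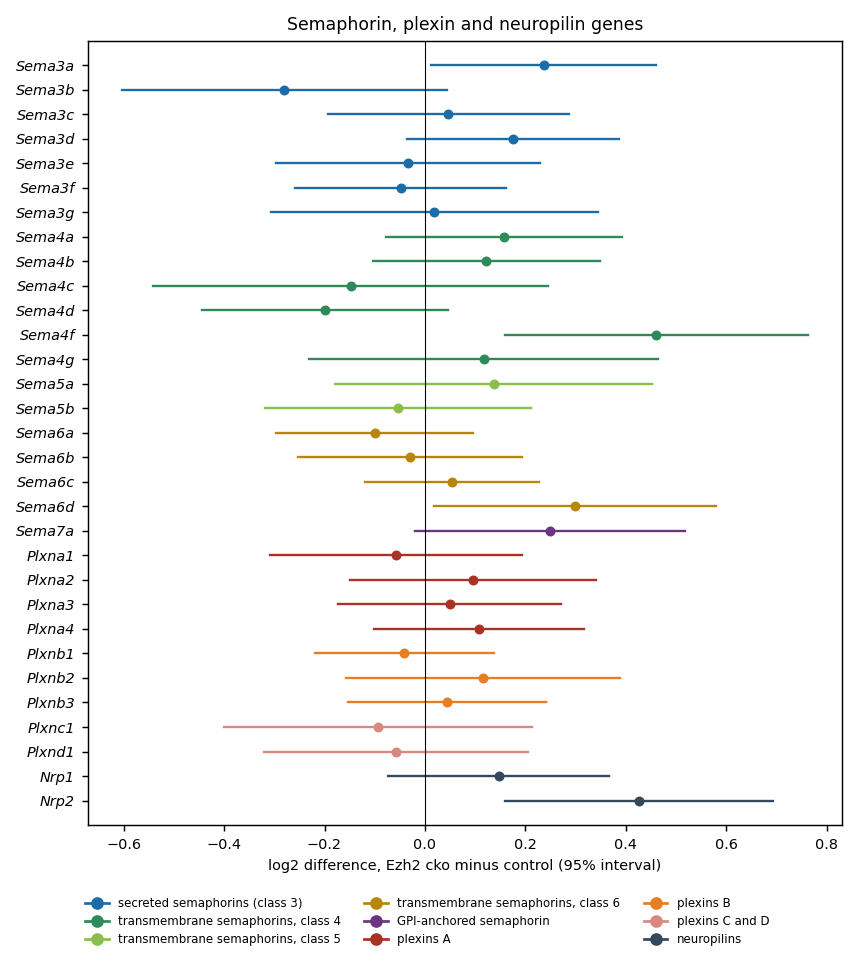
Log2 difference, *Ezh2* cko minus control (x axis), of the 31 semaphorin, plexin and neuropilin genes (y axis, grouped by class), with the 95% interval from limma as a line and 3 arrays per group. All 9 plexin intervals include 0, and those of *Sema3a*, *Sema4f*, *Sema6d* and *Nrp2* lie above 0 before adjustment.

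In 6 of the 31 genes, or 19.4%, every *Ezh2* cko array lay above every control array, which was so for 7.52% of all genes. They were *Nrp2*, *Sema3a*, *Sema3d*, *Sema4f*, *Sema6d* and *Sema7a*. In 0 members did every *Ezh2* cko array lie below every control, beside 7.88% of all genes. The 6 genes were 5 of the 20 semaphorins, or 25%, and 1 of the 2 neuropilins, and the groups overlapped for all 9 plexins. These counts are too small to set the classes apart. None of the 6 passed the adjusted p.

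The neuropilins are the co-receptors through which class 3 semaphorins reach plexins, and both also bind vascular endothelial growth factors. *Nrp2*, whose product binds Sema3f with high affinity, had log2 signals of 9.68, 9.29 and 9.27 in the *Ezh2* cko, against 9.02, 8.90 and 9.03 in controls. The groups did not overlap, and *Ezh2* cko replicate 1 stood above the other arrays. The difference was 0.43 (standard error 0.12, 95% interval 0.16 to 0.69, adjusted p = 0.356). All 4 of its probe sets gave positive differences, of 0.18 to 0.46, and in 2 of them the groups did not overlap. Without *Ezh2* cko replicate 1 the difference was 0.29.

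*Nrp1*, whose product binds Sema3a, had log2 signals of 9.37, 9.43 and 9.69 in the *Ezh2* cko, against 9.36, 9.31 and 9.37 in controls. The groups overlapped, since *Ezh2* cko replicate 1 lay between the controls. The difference was 0.15 (95% interval -0.073 to 0.37, adjusted p = 0.793). Its other 3 probe sets gave 0.13 to 0.31, and the groups were apart in 1 of them. Without *Ezh2* cko replicate 3, its highest array, the *Nrp1* difference was 0.051.

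The 7 secreted semaphorins of class 3 went both ways, with a median of 0.019, and 4 of the 7 were positive. *Sema3a*, the classical repellent of sensory and other axons, had log2 signals of 8.67, 8.56 and 8.46 in the *Ezh2* cko, against 8.17, 8.44 and 8.37 in controls. The groups were apart, though *Ezh2* cko replicate 3 and control replicate 2 were close, and control replicate 1 was the lowest array. The difference was 0.24 (95% interval 0.013 to 0.46, adjusted p = 0.637), and all 3 probe sets were positive, at 0.21 to 0.29, with the groups apart in 2. *Sema3d*, a ligand with roles in endothelial and cardiac development, had log2 signals of 4.91, 4.86 and 5.13 in the *Ezh2* cko, against 4.71, 4.83 and 4.83 in controls. The groups were apart by little and *Ezh2* cko replicate 3 was the highest array. The difference was 0.17 (adjusted p = 0.740), or 0.094 without *Ezh2* cko replicate 3, and the other probe set gave -0.12.

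*Sema3b*, which signals through neuropilins and is known as a candidate tumor suppressor, had the most negative difference of the family. Its log2 signals were 5.64, 5.47 and 5.25 in the *Ezh2* cko, against 6.01, 5.62 and 5.56 in controls. The groups overlapped, and the highest value was that of control replicate 1. The difference was -0.28 (95% interval -0.60 to 0.044, adjusted p = 0.724), and all 3 of its probe sets were negative. Without control replicate 1 it was -0.14, a smaller size than that of *Sema4c* (-0.37) or *Sema4d* (-0.21), and without *Ezh2* cko replicate 3 it was -0.18. *Sema3f*, the neuropilin-2 ligand that lies near *Sema3b* on chromosome 9 with 3 coding genes between them, was also negative in all 3 of its probe sets, at -0.22 to -0.048, with the groups overlapping in each. On chromosome 5, *Sema3d* and *Sema3a* are neighbors with 0 coding genes between them, and *Sema3e* follows *Sema3a* after 3 coding genes. *Sema3e*, which can bind plexin-D1 without a neuropilin, was at -0.033 (95% interval -0.30 to 0.23). *Sema3c*, a ligand needed in the cardiac outflow tract, was at 0.047 (-0.19 to 0.29) and *Sema3g* was at 0.019 (-0.31 to 0.34).

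The 12 transmembrane semaphorins of classes 4, 5 and 6 had differences of -0.20 to 0.46 with a median of 0.086. *Sema4f*, a semaphorin of neurons and glia, had log2 signals of 7.437, 7.630 and 7.833 in the *Ezh2* cko, against 6.953, 7.204 and 7.360 in controls. The groups did not overlap, with control replicate 1 lowest. The difference was 0.46 (standard error 0.13, 95% interval 0.16 to 0.76, adjusted p = 0.394). It rests on a probe set whose name marks probes that may match other transcripts, and the gene's other probe set gave 0.12.

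*Sema6d*, a ligand of plexin-A1, had log2 signals of 9.72, 9.69 and 9.96 in the *Ezh2* cko, against 9.24, 9.63 and 9.60 in controls. The groups were apart, by a narrow gap for controls 2 and 3. The difference was 0.30 (95% interval 0.018 to 0.58, adjusted p = 0.635). Its other 3 probe sets gave -0.061 to 0.087, at mean signals of 4.05 to 4.47, against 9.64 for the set that represents the gene. *Sema6a*, which binds plexin-A2 and plexin-A4, was at -0.10 (-0.30 to 0.097), *Sema6b* at -0.030 (-0.25 to 0.19) and *Sema6c* at 0.055 (-0.12 to 0.23). The class 6 ligands therefore did not share a direction.

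*Sema4d*, the ligand of plexin-B1, had log2 signals of 7.87, 7.74 and 7.93 in the *Ezh2* cko, against 8.02, 8.24 and 7.87 in controls. The groups overlapped through control replicate 3. The difference was -0.20 (95% interval -0.44 to 0.045, adjusted p = 0.743), and it was -0.10 without control replicate 2. A probe set of *Sema4d* that does not represent the gene had every *Ezh2* cko array below the controls, with a difference of -0.16, and the third gave 0.035. *Sema4c*, a ligand of plexin-B2, had log2 signals of 8.60, 8.56 and 8.51 in the *Ezh2* cko, against 8.27, 8.82 and 9.03 in controls. The spread of the controls (SD 0.40) was far wider than that of the *Ezh2* cko (SD 0.045), and the *Ezh2* cko arrays fell inside it. The difference was -0.15 (95% interval -0.54 to 0.25, adjusted p = 0.895). Without control replicate 1, 2 or 3 it was -0.37, -0.092 and 0.016.

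*Sema4a*, known for roles in immune cells and the retina, had log2 signals of 6.21, 6.28 and 6.48 in the *Ezh2* cko, against 6.02, 6.18 and 6.30 in controls, and the groups overlapped. Its difference was 0.16 (adjusted p = 0.792) and that of its other probe set was -0.0057. The *Sema4a* difference was 0.080 without *Ezh2* cko replicate 3 and 0.087 without control replicate 1. *Sema4b* was at 0.12 (95% interval -0.10 to 0.35) and *Sema4g* at 0.12 (-0.23 to 0.46). Of class 5, whose members carry thrombospondin repeats beside the sema domain, *Sema5a* was at 0.14 (-0.18 to 0.45) and *Sema5b* at -0.053 (-0.32 to 0.21).

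*Sema7a*, the lipid-anchored semaphorin, which binds plexin-C1 and beta1 integrin, had log2 signals of 7.52, 7.55 and 7.60 in the *Ezh2* cko, against 7.04, 7.41 and 7.48 in controls. The groups were apart, and control replicate 1 lay well below the other controls. The difference was 0.25 (95% interval -0.020 to 0.52, adjusted p = 0.697). The other probe set of *Sema7a*, with a mean signal of 4.60 against 7.43, gave -0.13.

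**Figure D2:**
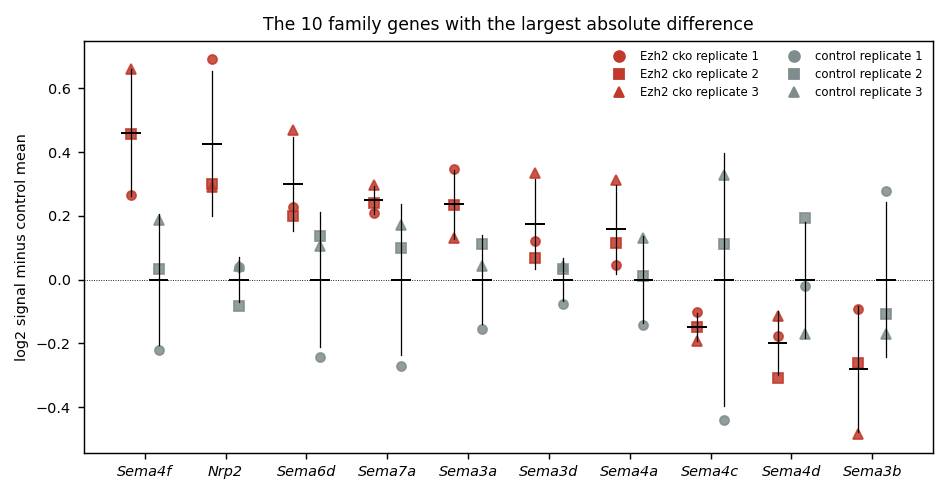
Deviation of the log2 signal from the mean of the controls (y axis) for the 10 genes with the largest absolute differences (x axis), for 3 *Ezh2* cko arrays (red) and 3 control arrays (grey), with the mean and SD as black lines and the symbol giving the replicate number. From *Sema4f* to *Sema3d* every red point lies above every grey point, and for *Sema4a*, *Sema4c*, *Sema4d* and *Sema3b* the groups overlap.

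The plexins are the signal-transducing receptors, and none of them differed by much. All 9 differences lay between -0.094 and 0.12, with a median of 0.044 and adjusted p-values of 0.847 to 0.947 (limma). Their intervals lay within 0.5 log2 units of 0, as did those of 90.3% of all genes. Among the A plexins, the partners of neuropilins, *Plxna1* was at -0.058 (95% interval -0.31 to 0.19), *Plxna2* at 0.095 (-0.15 to 0.34), *Plxna3* at 0.049 (-0.17 to 0.27) and *Plxna4* at 0.11 (-0.10 to 0.32). All 4 probe sets of *Plxna2* were positive, at 0.074 to 0.14.

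Of the B plexins, which bind class 4 semaphorins, *Plxnb1* had log2 signals of 9.105, 8.996 and 9.131 in the *Ezh2* cko, against 9.124, 9.178 and 9.053 in controls. Its arrays were interleaved and the difference was -0.041 (95% interval -0.22 to 0.14). *Plxnb2*, a plexin of neural progenitors, was at 0.12 (-0.16 to 0.39) and *Plxnb3* at 0.044 (-0.15 to 0.24). *Plxnc1*, the receptor of Sema7a, was at -0.094 (-0.40 to 0.21), and its 6 probe sets ran from -0.14 to 0.45, with 3 positive and 3 negative. The 3 positive sets were dim, with mean signals of 3.37 to 4.05, against 8.32 for the set that represents the gene. A negative set with a mean of 7.90 gave -0.14 (adjusted p = 0.772, limma), with every *Ezh2* cko array below every control. *Plxnd1*, an endothelial receptor of Sema3e, was at -0.057 (-0.32 to 0.21).

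**Figure D3:**
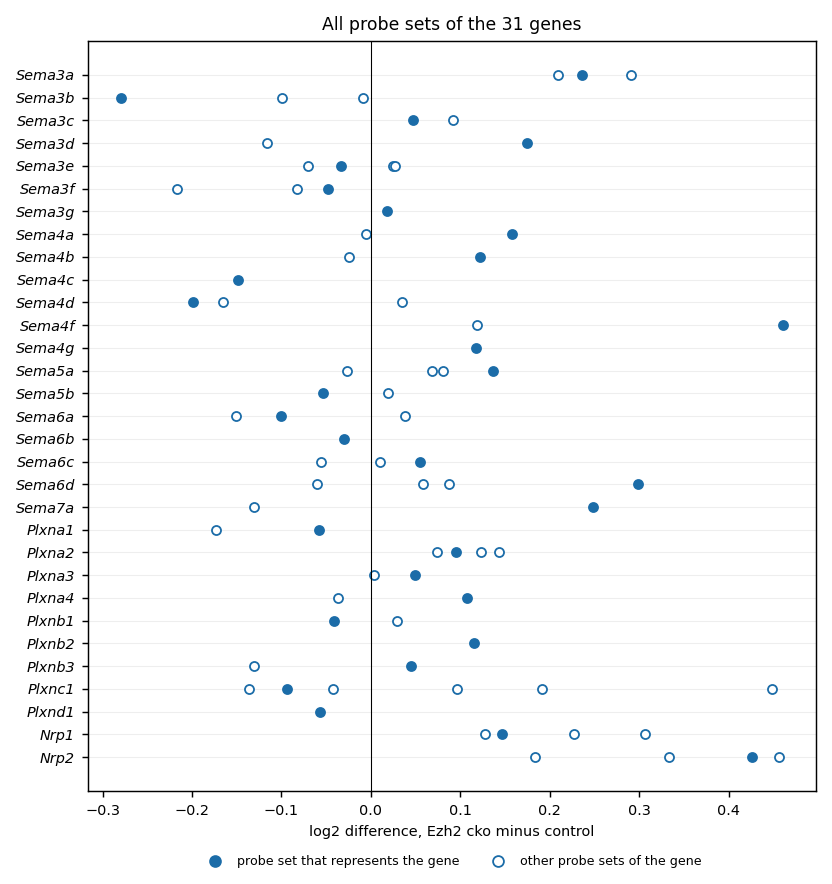
Log2 difference, *Ezh2* cko minus control (x axis), of all 78 probe sets of the 31 genes (y axis), with the probe set that represents each gene filled and the others open. The probe sets of *Nrp1*, *Nrp2*, *Sema3a* and *Plxna2* all lie above 0 and those of *Sema3b*, *Sema3f* and *Plxna1* all below it, whereas those of *Plxnc1* and *Sema7a* lie on both sides.

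Across probe sets, agreement within a gene was partial. Of the 25 genes with several probe sets, 7 had only positive differences, 3 only negative ones and 15 had both signs. By the choice made, the other probe sets of a gene are dimmer than the one that represents it. At an adjusted p under 0.05, 0 of the 78 probe sets passed, where 0.189% of all probe sets did. The *Ezh2* cko arrays lay entirely above the controls in 9 probe sets, or 11.5%, beside 5.72% of all probe sets, and entirely below them in 2, or 2.56%, beside 7.27%.

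Outside the family, partners and effectors were taken from lists of the pathway. Of 21 co-receptors and other proteins that bind semaphorins, plexins or neuropilins, 1 rose in the *Ezh2* cko, none fell and 20 did not pass (0.297% of all genes rose), and 15 had positive differences with a median of 0.049. The one that rose was *Met*, which encodes the receptor of hepatocyte growth factor, a tyrosine kinase that associates with plexins of the B class. Its log2 signals were 6.73, 6.56 and 6.70 in the *Ezh2* cko, against 6.02, 5.88 and 5.77 in controls, so that the groups were far apart. *Met* was 1.71-fold higher (log2 difference 0.77, standard error 0.092, 95% interval 0.56 to 0.98, adjusted p = 0.0224). None of the 21 partners reached the threshold of the methods. *Met* missed it because its fold change lay under the smallest one set there. Its other probe set, with a mean signal of 4.11 against 6.28, gave -0.043 (adjusted p = 0.961). The call was kept without control replicate 1 (adjusted p = 0.0406) and lost without *Ezh2* cko replicate 1, 2 or 3 (adjusted p-values 0.103, 0.0561 and 0.116) or control replicate 2 or 3 (0.105 and 0.0791), with log2 differences of 0.71 to 0.84.

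*Chl1*, which encodes an adhesion molecule of the L1 family that binds neuropilin-1, had log2 signals of 5.61, 5.93 and 6.36 in the *Ezh2* cko, against 4.85, 5.24 and 5.60 in controls. The groups were just apart and the spread within each was wide. The difference was 0.74 (95% interval 0.24 to 1.24, adjusted p = 0.418), and its other 3 probe sets gave -0.16 to 0.15. Those 3 sets had mean signals of 3.08 to 4.45, against 5.60 for the set that represents *Chl1*. *Cntn2*, which encodes an adhesion molecule of early axons, had log2 signals of 6.73, 6.85 and 7.28 in the *Ezh2* cko, against 5.91, 6.70 and 6.64 in controls. Control replicate 1 was far below the rest and the difference was 0.54 (adjusted p = 0.632), or 0.28 without that array. The other 3 probe sets of *Cntn2* gave 0.021 to 0.36. *L1cam*, which encodes a neuropilin-1 partner in the response to Sema3a, had a difference of 0.28 (adjusted p = 0.751), or 0.099 without control replicate 1. Its other probe set gave -0.10, at a mean signal of 3.66 against 8.11. The vascular endothelial growth factor genes, whose products share neuropilins with class 3 semaphorins, had differences of 0.019 for *Vegfa*, -0.095 for *Vegfb*, 0.26 for *Vegfc* and -0.074 for *Vegfd*, and none passed.

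Inside the cell, 0 of 31 measured plexin effectors passed the adjusted p, and at an unadjusted p under 0.05 there was 1 higher and 0 lower in limma, beside 0.302% of all genes past the adjusted p and 6.12% higher and 2.75% lower before adjustment. Of the 31, 20 had positive differences, beside 43% of all genes, and the median was 0.032. *Rnd1*, which encodes a small GTPase that binds plexins, had log2 signals of 7.20 to 7.43 in the *Ezh2* cko, against 6.62 to 7.09 in controls, with the groups apart and control replicate 1 lowest. The difference was 0.37 (95% interval 0.072 to 0.68, adjusted p = 0.542), or 0.23 without control replicate 1. *Limk1*, which encodes a kinase of cofilin, was at 0.29 (adjusted p = 0.763), *Crmp1*, which encodes a mediator of Sema3a signaling, at 0.21 (adjusted p = 0.852) and *Mras*, which encodes a small GTPase, at 0.15 (adjusted p = 0.756). The other probe sets of *Limk1* gave -0.049 and -0.11, and that of *Mras* gave 0.37. Without *Ezh2* cko replicate 3, *Limk1* was at 0.10 and *Crmp1* at 0.039, and without control replicate 1 *Crmp1* was at 0.046. The intervals of 28 of the 31 effectors lay within 0.5 log2 units of 0, about the share over all genes, 90.3%. Among the 21 partners, 14 had such intervals.

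**Figure D4:**
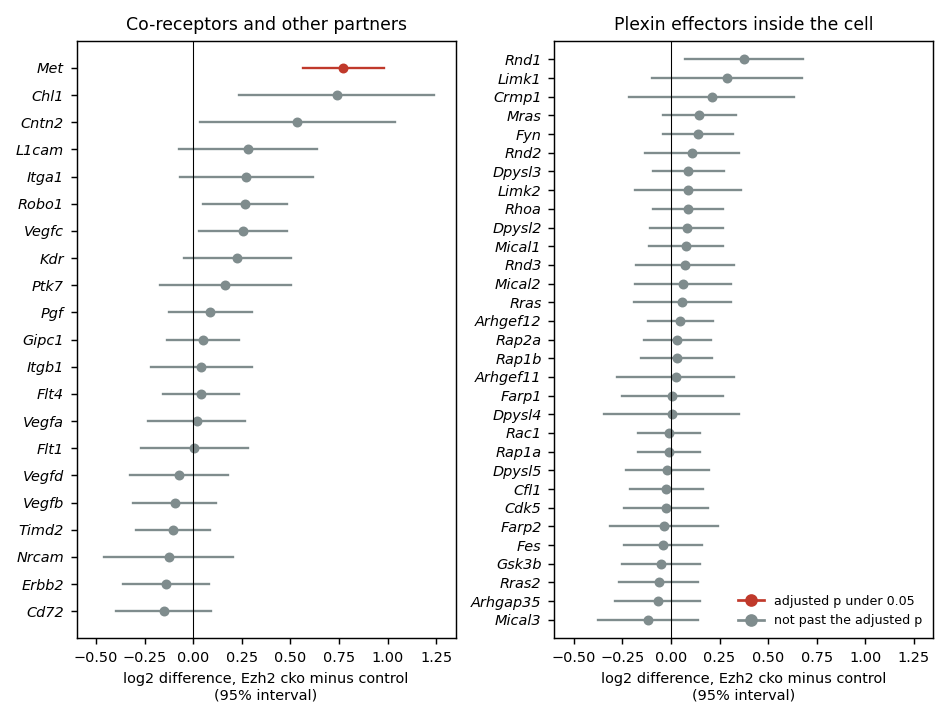
Log2 difference, *Ezh2* cko minus control (x axis), with its 95% interval from limma, of 21 co-receptors and other partners (left) and 31 plexin effectors (right). *Met*, in red, is the 1 gene past the adjusted p, and *Chl1* and *Cntn2* follow it with wide intervals.

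The arrays also differed in markers of some cell types. Of 19 neuron markers, 18 had positive differences with a median of 0.36 and none passed the adjusted p. Their summed log2 signal was 186.1 to 194.7 in the *Ezh2* cko and 179.1 to 186.6 in controls, with *Ezh2* cko replicate 3 highest and control replicate 1 lowest. Control replicate 1 was the lowest of the 6 arrays in 5 of the 6 family genes whose groups did not overlap, all but *Nrp2*, and in 12 of all 31 members, or 38.7%, beside 20.6% of all genes and 53.5% of all genes whose *Ezh2* cko arrays lay above the controls. Without that array the differences were 0.16 for *Sema3a*, 0.14 for *Sema3d*, 0.35 for *Sema4f*, 0.18 for *Sema6d* and 0.11 for *Sema7a*, and 0.45 for *Nrp2*. *Nrp2* was highest on *Ezh2* cko replicate 1, the lowest of the *Ezh2* cko arrays in neuron markers. Whether neuron content bears on the difference of any of these genes was not tested.

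Of 15 mesenchyme markers, 14 had positive differences with a median of 0.24, and their summed log2 signal was 125.2 to 127.9 in the *Ezh2* cko and 119.5 to 125.0 in controls. Of 7 measured neural crest markers, 6 had positive differences with a median of 0.11, and their sum was 54.9 to 56.6 in the *Ezh2* cko and 53.9 to 54.2 in controls, without overlap. Endothelial markers, of which 8 of 10 were positive, had a median of 0.060. Their sums were 77.4 to 79.8 in the *Ezh2* cko and 77.6 to 79.0 in controls. All 10 macrophage markers were positive, with a median of 0.20 and a lowest adjusted p of 0.557 (limma). The macrophage sums overlapped, at 67.8 to 70.1 in the *Ezh2* cko and 63.7 to 69.0 in controls, with control replicate 1 lowest. Of 9 midbrain markers, 7 had positive differences with a median of 0.24, within a range of -0.88 to 0.90. The threshold of the methods was reached by 2 of the 9, beside 0.407% of all genes. Among the 9 are *Wnt1* and *Tal2*, which the paper lists as higher and lower in the *Ezh2* cko. The sum of the midbrain markers was 82.1 to 84.5 in the *Ezh2* cko and 80.3 to 81.8 in controls, without overlap. Positive differences were fewer among the neural progenitor markers, 8 of 13 with a median of 0.050, and the erythroid ones, 3 of 8 with a median of -0.065. The part of these cell types in the differences of the semaphorin family was not tested.

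**Figure D5:**
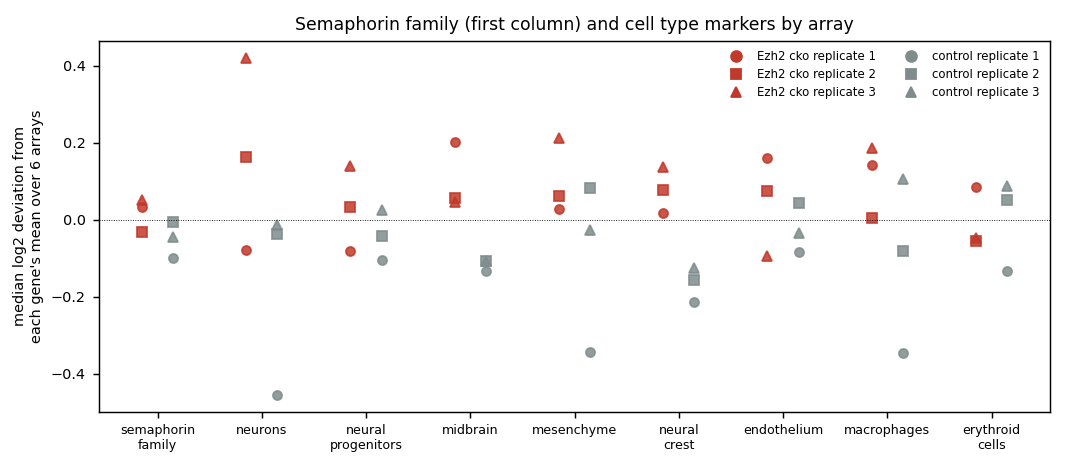
Median deviation, in log2 units, from the gene's own average across arrays (y axis) for the 31 family genes and for the marker lists (x axis), on each of 3 *Ezh2* cko arrays (red) and 3 control arrays (grey), with the symbol giving the replicate number. Control replicate 1 is lowest in every list shown but the endothelial one, and the family medians stay between -0.10 and 0.051, a narrower range than that of the neuron markers, -0.45 to 0.42.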

How the data were processed

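Total RNA from dorsal midbrain of 3 *Ezh2* cko and 3 control embryos was hybridized to Affymetrix A430 arrays, 1 per sample. The authors deposited log2 signals, 1 per probe set, made with RMA, which the submitters' processing notes name (background correction, quantile normalization and summary of probes). The software and its version are not given in the sources used here. Array signals have no depth, and the number of arrays limits the precision.

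After removal of 64 control sets, 45037 probe sets entered limma (version 3.58.1, under R 4.3.3), which compared *Ezh2* cko with control by lmFit and eBayes, with Benjamini-Hochberg adjustment over all of them. No litter could be entered as a term, so p-values measure the spread between these samples. Intervals use the moderated variance and its degrees of freedom. Of the probe sets, 34945 have 1 symbol, 932 several and 9160 none. Entrez identifiers matched current symbols for 34741. The procedure was tested on simulated data.

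The members and the gene lists were chosen with earlier results of these data known. Every member may be named. Values on every array are given for members past the adjusted p, members whose groups do not overlap and the 10 with the largest absolute difference, and for *Met*, *Chl1* and *Cntn2*. From each pathway list, the genes past the adjusted p and the 4 with the largest absolute difference were named. The *Vegf* genes and the array values of *Plxnb1* and *Nrp1* were added after their values were seen. Of the 33 plexin effectors listed, *Rhod* and *Pak1* had no probe set of their own. Lists were described by counts and medians only. The marker lists were neurons, neural progenitors, midbrain, mesenchyme, neural crest, endothelium, macrophages and erythroid cells. Neural progenitor, midbrain and erythroid markers had median differences of 0.050, 0.24 and -0.065.

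Alternatives were a trended and robust prior, array weights, removal of probe sets with a mean under 5 log2 units, 3 other normalizations, removal of probe sets that may match several transcripts, the replicate number as a block, each array left out, another choice of probe set, the unpaired two-sided test of the methods and an adjusted p of 0.1.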

Additional observations from a re-analysis of the deposited data

How the results depend on the processing

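The count of family genes past the adjusted p was 0 under every alternative fitted with limma, in the unpaired two-sided test of the methods and at an adjusted p under 0.1, and so was the count past the threshold of the methods. Of the 31 genes, 11 kept the sign of their difference under all alternatives, among them *Nrp1*, *Nrp2*, *Sema3a*, *Sema4d*, *Sema4f* and *Sema6d*, and 20 did not. *Sema3d* and *Sema3e* have means under 5 log2 units and had no value when dim probe sets were left out. The 3 arrays per group limit the sizes that can pass the test.

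Other probe sets changed some signs. Without the sets that may match several transcripts, *Plxnb3* was at -0.13 and *Sema4a* at -0.0057. With the set of largest variance, *Plxnb1* was at 0.029, *Plxnb3* at -0.13, *Plxnc1* at 0.45, *Sema3e* at 0.027, *Sema6a* at 0.038 and *Sema7a* at -0.13. Of these sets, those of *Plxnc1*, *Sema3e* and *Sema7a* were dim, with mean signals of 4.05, 3.53 and 4.60. With the mean of all sets of a gene, *Plxnb3* was at -0.043 and *Plxnc1* at 0.077, and *Met* no longer passed (0.37, adjusted p = 0.222), which left a count of 0 partners.

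With the average of the neuron markers entered as a covariate, chosen after seeing the data, signs changed for *Plxna1* (0.062), *Plxna3* (-0.10), *Sema3b* (0.056), *Sema3f* (0.048), *Sema4a* (-0.041), *Sema4g* (-0.16), *Sema6a* (0.021), *Sema6b* (0.025), *Cntn2* (-0.0072), *L1cam* (-0.037), *Limk1* (-0.0054) and *Crmp1* (-0.19), none of them called. *Nrp2* was at 0.61 and *Sema3a* at 0.22 with this term, while *Sema4f* was at 0.16, *Sema6d* at 0.048, *Sema3d* at 0.042 and *Sema7a* at 0.037. *Met* was at 0.87 (adjusted p = 0.109), which left 0 partners past the test. Over the whole array, 9 probe sets passed with this term, in place of 85 without it. The cause was not tested.

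Over the 6 single arrays left out, the count of partners was 0 to 1 and their median 0.049 to 0.12. Among all probe sets, 21 to 46 passed in these fits, in place of 85 with all arrays. Single genes whose sign changed ranged as follows. *Plxna1* ranged from -0.15 to 0.022, *Plxna2* from -0.013 to 0.17, *Plxna3* from -0.021 to 0.11, *Plxnb3* from -0.024 to 0.093 and *Plxnd1* from -0.14 to 0.045. *Sema3c* ranged from -0.040 to 0.12, *Sema3e* from -0.13 to 0.068, *Sema3f* from -0.12 to 0.025, *Sema3g* from -0.085 to 0.18, *Sema4c* from -0.37 to 0.016, *Sema4g* from -0.039 to 0.23, *Sema5a* from -0.019 to 0.24, *Sema5b* from -0.15 to 0.063 and *Sema6b* from -0.097 to 0.057.

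The arrays share replicate numbers between groups. Deviations of same-numbered arrays from their group means correlated at 0.065, -0.20 and 0.063, beside -0.16 to 0.12 for arrays of different numbers. Deviations within a group of 3 arrays balance each other, so these values cannot decide whether the numbers pair the arrays. With the replicate number as a block, 59 probe sets passed in place of 85 and 0 family genes did. *Met* had an adjusted p = 0.0584 and *Chl1* one of 0.0468 there, so 1 partner passed as before, but not the same one.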
